A study of Mus musculus with 7 samples.

Results

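The 10 genes described here encode the 4 ErbB receptors (Egfr, Erbb2, Erbb3 and Erbb4) and 6 ligands of the epidermal growth factor (EGF) family (Ereg, Areg, Hbegf, Tgfa, Btc and Nrg1). They were taken by symbol from a deposited table of 24346 genes, and all 10 were among the 14151 genes that were tested. RNA was sequenced from primary neurospheres, grown for days from the hippocampus of single 2-month-old mice on the C57/BL6 strain. The 3 Med23 CKO libraries (KO_117, KO_214 and KO_218) came from Nestin-CreER:Med23 flox/flox mice, in which tamoxifen removes exons from Med23, a subunit of the Mediator complex that links transcription factors to RNA polymerase II. The 4 control libraries (WT_215, WT_116, WT_213 and WT_220), labelled wild type, came from littermates that the methods describe as Med23 flox/+ or Med23 flox/flox mice without the Cre. Both groups received tamoxifen at 200 mg/kg for 5 days; the labels place this at 2 months of age, and the methods place it at 1 month for cultured cells. Cre under the Nestin promoter is active in neural stem cells (NSCs) and, according to the study, also in endothelial cells, so the deletion need not be present in every cell of a sphere.

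ErbB receptors are tyrosine kinases of the cell membrane that act in pairs. Egfr binds EGF, Tgfa, Areg, Ereg, Btc and Hbegf; Erbb4 binds Nrg1 and also Hbegf, Btc and Ereg; Erbb3 binds Nrg1 and has little kinase activity of its own; and Erbb2 binds no known ligand and serves as the preferred partner of the others. The ligands are made as membrane proteins and are released by ADAM proteases, and the active receptors signal through Ras and ERK. In the adult brain, Egfr marks activated NSCs and their dividing progeny, and EGF, with FGF, keeps neurospheres dividing. Both were in the medium of all these cultures, so the receptor was supplied with a ligand that the cells themselves hardly transcribed: Egf was between 0.368 and 0.694 FPKM in the 7 libraries.

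Values are FPKM, fragments scaled by transcript length and by the mapped fragments of the library, which the authors calculated with Cuffdiff, so that levels can be compared between genes per length. Differences are those of mean log2(FPKM + 1), Med23 CKO minus control, from limma, a scale that understates the change of genes near 0. The sequencing depth behind these values is unknown, and the number of libraries limits the precision. The libraries stood apart in more than genotype. Between 16841 and 18113 genes had a value above 0, and the 10 highest genes held 12.2% of the summed FPKM in KO_214 against 5.12% to 8.61% in the others. Med23 itself was between 10.1 and 12.9 FPKM in control and between 8.12 and 9.97 FPKM in Med23 CKO, a difference of -0.26 (standard error 0.18) in a value over the whole gene that includes the exons outside the deletion. The paper checked the deletion by qRT-PCR for Med23 in primary neurospheres and by western blot of the hippocampus. Summed markers of microglia and macrophages (15 genes) reached 1873 FPKM in KO_214, 291 in KO_218 and 58.5 in KO_117, and lay between 58.6 and 387 in control, and none of the 15 was at 0 in any library. Cx3cr1 of that list did not share the high level of KO_214. It had 0.157 FPKM there, 0.722 in KO_218 and 0.0866 to 0.782 in control, and was too low to be tested. In bulk RNA, fewer cells of a type and less RNA per cell cannot be told apart.

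The promoters of 3 members are shown for the pattern described further on, in which Egfr was high where Btc was low, and for Areg, the neighbour of Btc on chromosome 5. The promoter table, from RefSeq on GRCm38.p6 (the assembly of mm10), had an entry for 6 of the 10 members (Egfr, Erbb2, Erbb4, Areg, Btc and Tgfa). Each sequence below is the 250 bases before the start of the gene, 5′ to 3′ on the strand of the gene, and capitals mark a motif found by a search of both strands.
Egfr, chr11:16751953-16752202, forward strand: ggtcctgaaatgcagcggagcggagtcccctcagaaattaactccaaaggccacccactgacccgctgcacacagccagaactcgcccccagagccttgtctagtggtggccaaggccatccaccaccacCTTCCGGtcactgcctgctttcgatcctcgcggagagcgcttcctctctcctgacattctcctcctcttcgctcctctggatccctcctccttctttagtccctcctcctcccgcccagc
Areg, chr5:91139349-91139598, forward strand: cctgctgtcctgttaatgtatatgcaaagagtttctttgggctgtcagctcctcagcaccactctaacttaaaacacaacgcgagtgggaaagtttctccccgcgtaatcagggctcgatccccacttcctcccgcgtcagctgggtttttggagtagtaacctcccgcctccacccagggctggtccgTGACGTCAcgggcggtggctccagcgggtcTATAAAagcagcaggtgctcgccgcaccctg
Btc, chr5:91402995-91403244, reverse strand: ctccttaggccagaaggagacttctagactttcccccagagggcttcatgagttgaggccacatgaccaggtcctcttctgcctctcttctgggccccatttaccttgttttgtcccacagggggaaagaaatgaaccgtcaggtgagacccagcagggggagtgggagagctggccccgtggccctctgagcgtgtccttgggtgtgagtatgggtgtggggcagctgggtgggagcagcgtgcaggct
The search was for the AP-1 motif TGACTCA, the cAMP response element TGACGTCA, the ETS motif CCGGAAG (ETS factors include Elk1, which is known to bind Med23), the TATAAA box and the CArG box of serum response factor. The Egfr promoter held CCGGAAG on the reverse strand, beginning 120 bases before the start, a motif that 6.91% of 32851 promoters of this length held. The Areg promoter held TGACGTCA beginning at 61 bases and TATAAA at 31 bases before the start, which 1.55% and 12.4% of promoters held. None of the 5 motifs was in the window of Btc or in that of Erbb2. The windows of Erbb4 and Tgfa lie at least in part inside the coordinates of these genes given below, since other transcripts start earlier, and they are not described. AP-1 and CArG motifs were in 4.46% and 1.47% of promoters. A match is only a match of letters.

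Across the 7 libraries, Tgfa had the highest mean, at 45.1 ± 25.5 FPKM (SD, n = 7). It was followed by Egfr (27.7 ± 14.0), Hbegf (27.0 ± 10.4), Areg (8.71 ± 3.89), Btc (5.62 ± 4.38), Nrg1 (2.89 ± 1.003), Ereg (2.72 ± 3.14), Erbb3 (1.83 ± 1.205), Erbb4 (1.82 ± 1.36) and Erbb2 (0.805 ± 0.480 FPKM). The neurospheres thus had 1 abundant receptor and 2 abundant ligands. Of the 9 pairs of neighbours in this order, only Hbegf and Areg kept their order in all 7 libraries, with a gap of 1.56 ± 0.50 on the log2(FPKM + 1) scale (SD, n = 7). For the 8 other pairs, the gene with the higher mean led in 3 to 6 libraries and the gap was smaller than its SD, so these neighbours, Tgfa and Egfr among them, were not separated by their spread. Egfr made up between 58.5% and 96.8% of the summed FPKM of the 4 receptors, and Tgfa and Hbegf together between 72.2% and 83.7% of that of the 6 ligands.

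**Figure D1:**
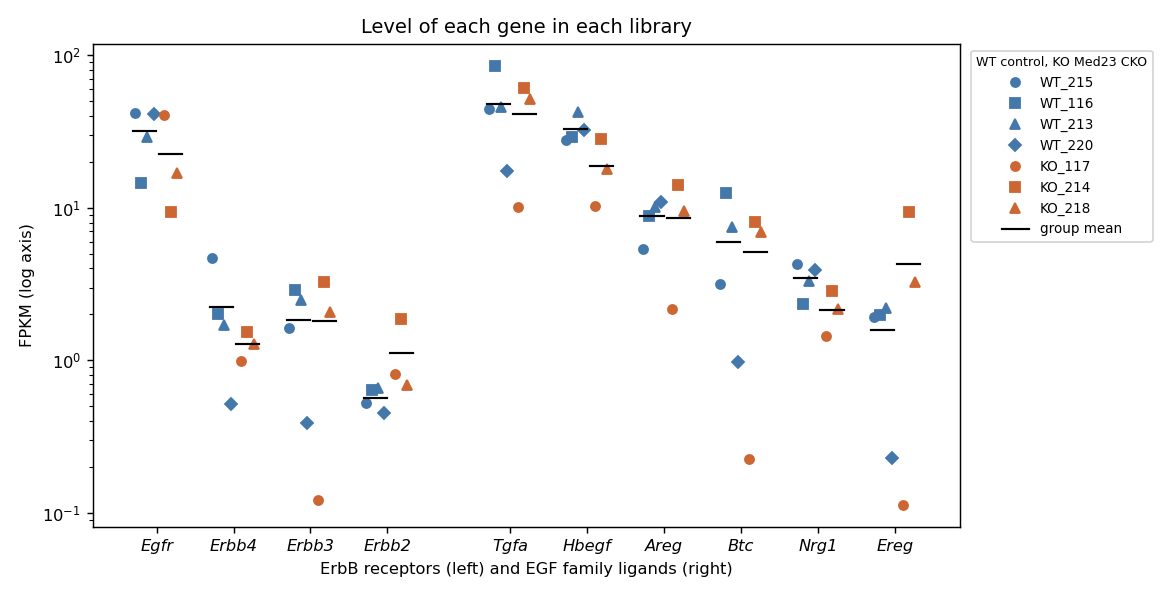
FPKM of the 4 receptors and 6 ligands on a log axis, 1 point per library (blue control, orange Med23 CKO) with the group mean as a line. Egfr, Tgfa and Hbegf lead, Erbb2 is the only gene whose Med23 CKO points all lie above its control points, and KO_117 has the lowest point of all 6 ligands.

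To examine whether loss of Med23 altered the family, each member was compared between the 3 Med23 CKO and the 4 control libraries. At an adjusted p under 0.05, 0 of the 10 members passed in either direction, and neither did any of the 14151 genes (0% higher and 0% lower). Without adjustment, Hbegf was lower at a p under 0.05 in limma and no member was higher, that is 1 of 10 and 0 of 10, where 0.996% of all genes were lower and 0.502% higher. Of all genes called in this way, 33.5% were higher, and 45.4% were when the libraries were centred on their median. For Erbb2, the 3 Med23 CKO libraries exceeded all 4 controls, and for no member did all 3 stay under the controls, where the shares over all genes were 0.784% and 1.53%. The mean was lower in Med23 CKO for 8 of the 10 (56.2% of all genes), and the median difference was -0.33 for the members and -0.03 for all genes. Without KO_117, the mean was lower for 4 of the 10 members (Egfr, Erbb4, Hbegf and Nrg1) and their median was 0.41, and without WT_116 it was lower for 6 and the median was -0.14. The mean log2(FPKM + 1) over the 4 receptors differed by -0.17, with a spread between libraries of a group of 0.250, and that over the 6 ligands by -0.28, with a spread of 0.776. Without KO_117 the difference of the ligands was 0.34, on the other side of 0. The mouse numbers start with 1 or 2, which the labels do not explain. Within the 5 mice numbered in the 200s, the difference of the ligands was 0.46, and the member lower at an unadjusted p under 0.05 was Egfr (-1.47) instead of Hbegf (-0.56), while Ereg was higher (1.56) and Tgfa (0.75) and Btc (1.05) were on the other side of 0. Such calls were common in this subset: over all genes, 1381 were lower and 476 higher, against 141 and 71 with all 7 libraries. The other 2 mice, 1 in each group, allow no test among themselves.

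**Figure D2:**
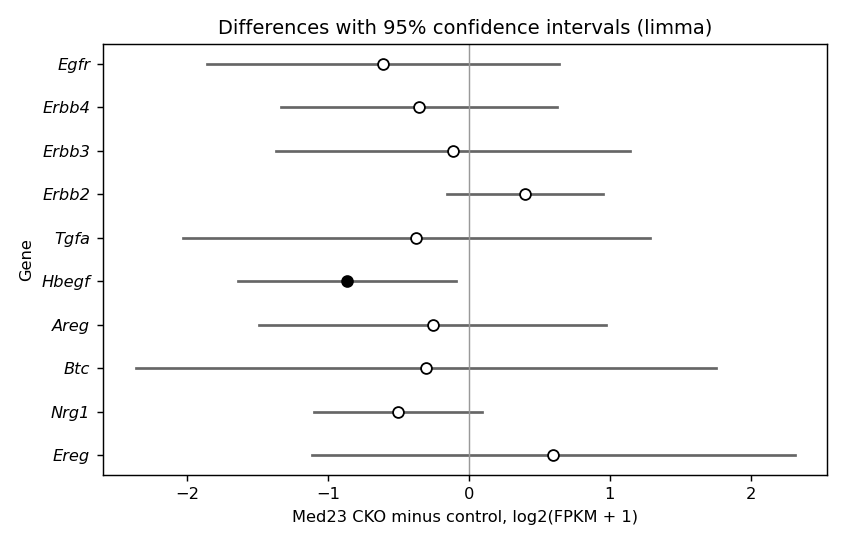
Difference in mean log2(FPKM + 1), Med23 CKO minus control, for each member, with its 95% confidence interval from limma; the filled point has an unadjusted p under 0.05. The interval of Hbegf, from -1.64 to -0.09, is the only one that does not include 0.

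Hbegf, heparin-binding EGF-like growth factor, lies on chromosome 18 of GRCm38.p6 from 36504927 to 36515805. Among the controls it had 28.0 FPKM in WT_215, 29.2 in WT_116, 42.6 in WT_213 and 32.3 in WT_220. In Med23 CKO it had 10.2 FPKM in KO_117, 28.5 in KO_214 and 17.9 in KO_218, and the same order of libraries is used below. KO_117 and KO_218 lay below all controls, and KO_214 lay among them, just above WT_215. The mean was 33.0 ± 6.65 FPKM in control (SD, n = 4) and 18.9 ± 9.16 FPKM in Med23 CKO (SD, n = 3). The difference was -0.87 (standard error 0.33, 95% confidence interval -1.64 to -0.09, unadjusted p = 0.0332 from limma, adjusted p = 0.9999), and the ratio of mean FPKM was 0.572. By the exact permutation test over the 35 ways to divide 7 libraries into 4 and 3, two-sided, the p was 0.0571, where the smallest possible is 0.0286. The mean was lower in Med23 CKO with each library left out in turn, from -1.20 without KO_214 to -0.51 without KO_117, and the unadjusted call was lost without WT_213, WT_220, KO_117 or KO_218.

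Nrg1, neuregulin 1, is the ligand of Erbb3 and Erbb4 and is known for its roles in myelination and in interneurons. It lies on chromosome 8 from 31807452 to 32891609, and its many isoforms are summed in 1 value. It had 4.25, 2.32, 3.32 and 3.90 FPKM in the controls and 1.43, 2.86 and 2.16 FPKM in the Med23 CKO libraries, in the order above. KO_117 and KO_218 were below all controls and KO_214 was above WT_116. The difference was -0.50 (standard error 0.26, 95% confidence interval -1.10 to 0.09, adjusted p = 0.9999 from limma), and it had an unadjusted p under 0.05 without KO_214 (-0.66) and without WT_116 (-0.64). In these settings 206 and 201 of all genes were lower at that p, against 141 with all 7 libraries.

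Ereg, epiregulin, is a ligand of low affinity and broad receptor use that macrophages also make. It lies on chromosome 5 from 91074617 to 91093649. It had 1.92, 1.99, 2.19 and 0.228 FPKM in the controls, and 0.113, 9.37 and 3.26 FPKM in KO_117, KO_214 and KO_218. Of the Med23 CKO libraries, KO_214 and KO_218 were above all controls and KO_117 was below them all, an 83.3-fold range over the 7 libraries that was the widest of the 10 members. The difference of 0.60 (standard error 0.73, adjusted p = 0.9999 from limma) went to -0.15 without KO_214, and to 1.46 without KO_117, where it had an unadjusted p under 0.05. Over all genes, 362 were higher at that p without KO_117, against 71 with all 7 libraries. The paper names Ereg among the upregulated genes of cell proliferation in Med23-deficient NSCs, by Cuffdiff and with n = 3 in each group. KO_214, the library with the highest Ereg, was also the one with the highest sum of microglia and macrophage markers, though not of Cx3cr1. Cd68 was 259 FPKM there against 9.49 to 50.3 FPKM in the other 6 libraries. The part of such cells in the level of Ereg was not tested.

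Areg, amphiregulin, lies 45950 bases beyond Ereg on the same chromosome, from 91139599 to 91148432. It had 5.35, 8.85, 10.1 and 10.9 FPKM in the controls and 2.18, 14.2 and 9.50 FPKM in the Med23 CKO libraries. KO_117 was lowest and KO_214 highest of all 7, with the controls between them, and the difference was -0.26 (standard error 0.53, 95% confidence interval -1.49 to 0.98). Unlike Ereg and Btc, Areg was not low in WT_220, where it had its second highest value.

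Btc, betacellulin, a ligand of both Egfr and Erbb4, is the last gene of this cluster of EGF family ligands, from 91357261 to 91402994. It had 3.14, 12.4, 7.47 and 0.970 FPKM in the controls and 0.225, 8.12 and 6.97 FPKM in the Med23 CKO libraries. WT_220 and KO_117 had little of it and the 5 other libraries more, in both groups alike, so the difference of -0.31 had a standard error of 0.88 and an interval of -2.37 to 1.75. Epgn, the other EGF family ligand of the cluster, stayed between 0.0663 and 0.211 FPKM and was not tested.

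Tgfa, transforming growth factor alpha, lies on chromosome 6 from 86195038 to 86275744. It had 44.3, 85.3, 45.8 and 17.5 FPKM in the controls and 10.1, 61.1 and 51.7 FPKM in the Med23 CKO libraries. As for Btc, WT_220 and KO_117 were the lowest and WT_116 and KO_214 the highest, and the difference was -0.37 (standard error 0.71, 95% confidence interval -2.03 to 1.28). The ratio of Tgfa to Hbegf therefore ran from 0.543 in WT_220 to 2.92 in WT_116 within the controls, and from 0.988 to 2.88 in Med23 CKO.

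Egfr, the receptor for EGF, lies on chromosome 11 from 16752203 to 16913907. It had 42.0, 14.5, 29.3 and 41.1 FPKM in the controls and 40.8, 9.43 and 17.0 FPKM in KO_117, KO_214 and KO_218. The groups overlapped: KO_117 was level with WT_215 and WT_220, and WT_116 was below KO_218. KO_214 was below all controls, and KO_218 was below all but WT_116. The difference was -0.61 (standard error 0.54, 95% confidence interval -1.86 to 0.64, adjusted p = 0.9999 from limma). It was -0.15 without KO_214 and -1.15 without KO_117, where the unadjusted p was under 0.05. Over all genes, 410 were lower at that p without KO_117, against 141 with all 7 libraries.

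Erbb2, also known as Neu or HER2, lies on chromosome 11 from 98412484 to 98437716. It had 0.525, 0.638, 0.659 and 0.451 FPKM in the controls and 0.811, 1.86 and 0.691 FPKM in the Med23 CKO libraries. The groups did not overlap, but KO_218 stood only just above WT_213, and KO_214 was well above the rest. The mean was 0.568 ± 0.0979 FPKM in control (SD, n = 4) and 1.12 ± 0.644 FPKM in Med23 CKO (SD, n = 3). The difference was 0.40 (standard error 0.24, 95% confidence interval -0.16 to 0.95, adjusted p = 0.9999 from limma). The exact permutation p of 0.0286 was the smallest possible. Without KO_214 the difference was 0.16. In the annotation Erbb2 overlaps Mien1, a gene of 50.4 to 139 FPKM, and fragments of the overlap cannot be told apart without strand.

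Erbb3, which pairs with Erbb2 and is known from Schwann cells and the oligodendrocyte lineage, lies on chromosome 10 from 128567523 to 128589635. It had 1.64, 2.88, 2.47 and 0.387 FPKM in the controls and 0.121, 3.28 and 2.07 FPKM in the Med23 CKO libraries. It was low in WT_220 and KO_117 and higher in the others, as Tgfa and Btc were, and the difference was -0.11 (standard error 0.54, 95% confidence interval -1.37 to 1.14). Erbb4, the neuregulin receptor of interneurons, lies on chromosome 1 from 68031884 to 69108576. It had 4.69, 2.00, 1.69 and 0.513 FPKM in the controls and 0.995, 1.54 and 1.28 FPKM in the Med23 CKO libraries. WT_215 and WT_220, the highest and the lowest, were both controls, and the difference of -0.35 (standard error 0.42) was -0.03 without WT_215.

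**Figure D3:**
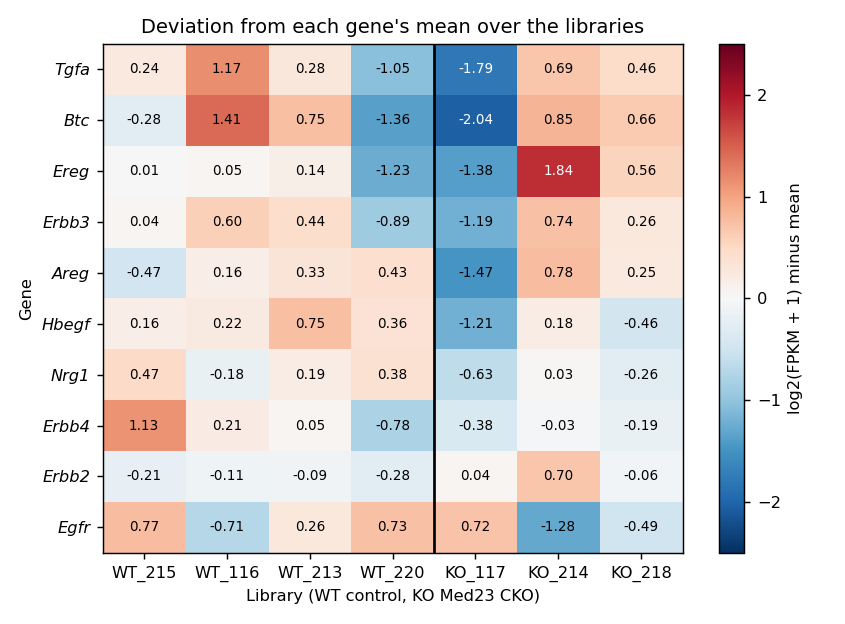
Deviation of log2(FPKM + 1) from the mean of the gene over the 7 libraries, in red above and in blue below it, for each member and library. Tgfa, Btc, Ereg and Erbb3 are all blue in WT_220 and KO_117 and red in KO_214, and Egfr has the reverse sign in these 3 libraries.

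The libraries thus differed within each group in a way that some members shared, namely Tgfa, Btc, Ereg and Erbb3. Areg, Hbegf and Nrg1 did not share it in WT_220, where they were above their mean (by 0.43, 0.36 and 0.38 on the log2(FPKM + 1) scale). KO_117 had the lowest value of 7 members, namely Erbb3 and all 6 ligands, and KO_214 the highest of 4, namely Erbb2, Erbb3, Ereg and Areg. WT_220 was second to KO_117 as the lowest library for Tgfa, Btc, Ereg and Erbb3. Egfr went the other way: WT_215, WT_220 and KO_117 had the most, and KO_214 and WT_116 the least. In sum, the 6 ligands came to 87.0, 140, 111 and 65.8 FPKM in the controls and to 24.3, 124 and 91.5 FPKM in Med23 CKO, and the 4 receptors to 48.9, 20.0, 34.1 and 42.4 FPKM and to 42.7, 16.1 and 21.0 FPKM. The ratio of the sum of ligands to that of receptors was therefore lowest in KO_117, at 0.569, and highest in KO_214, at 7.70, both of the same genotype, with the controls at 1.55 to 7.001.

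Markers of cell types varied along with this order, and their part in it was not tested. The neural stem cell genes Nes (61.1 to 240.5 FPKM) and Sox2 (69.4 to 194 FPKM) were abundant in all 7 libraries, and so were genes of other cells. Vim and Fabp7 of the stem cell list were higher than both in each library. Others of that list were low, namely Hes5 (0.278 to 6.72 FPKM), Pax6 (3.80 to 6.73 FPKM) and Prom1 (2.46 to 10.96 FPKM). Gfap, also listed, ran opposite to Nes in KO_214 (321 against 61.1 FPKM) and WT_220 (17.8 against 186 FPKM). Mbp, a myelin protein of mature oligodendrocytes, had 838, 2234, 1023 and 238 FPKM in the controls and 66.5, 1515 and 1195 FPKM in Med23 CKO. Its lowest and second lowest libraries were KO_117 and WT_220, and its highest WT_116, the same as for Tgfa and Btc. Olig2, a factor of glial and dividing progenitors, had 461, 152, 215.3 and 701 FPKM and 505, 84.0 and 149 FPKM, with the 3 libraries of high Egfr as its highest 3. Mbp and Olig2 are both on the oligodendrocyte lineage list, so its sum below mixes opposite orders. Pdgfra of that list followed neither: it was highest in WT_215 (8.94 FPKM) and next in KO_214 (5.42 FPKM), where Olig2 was lowest. The 10 endothelial markers summed to 13.6 to 78.4 FPKM in control and 9.22 to 149 FPKM in Med23 CKO, and the 11 markers of mural cells and fibroblasts to 52.1 to 102 and 54.5 to 398 FPKM, both with KO_214 highest. Cspg4 of the mural and fibroblast list ran otherwise, with 43.2 FPKM in WT_215, 51.0 in WT_220, 47.2 in KO_117 and 12.9 in KO_214. It made up most of the sum of that list in WT_220 (60.4 FPKM) and KO_117 (54.5 FPKM). In WT_215, the 6 markers of choroid plexus and ependyma, led by Ttr at 630 FPKM, summed to 644 FPKM against 10.5 to 71.4 in the others, and this library had the highest Erbb4. Folr1 was also highest in WT_215 (4.58 FPKM), but Foxj1 (13.7 FPKM) and Aqp1 (5.79 FPKM) were highest in KO_214. The 10 oligodendrocyte lineage genes together summed to 2951 to 5453 FPKM in control and 2237 to 3321 FPKM in Med23 CKO, the 10 neural stem cell genes to 1897 to 3842 and 2081 to 3877 FPKM, and the 10 neuron and neuroblast genes to 129 to 162 and 80.8 to 192 FPKM. The neuronal sum was highest in KO_117, where Map2 made up most of it (147 FPKM). Dcx was also highest there (2.80 FPKM), but Neurod1 (0.119 FPKM) and Slc17a7 (0.295 FPKM) were lowest there and highest in WT_116. The mean was higher in Med23 CKO for all 14 microglia and macrophage genes tested (median difference 0.87), all 10 endothelial genes (0.52) and 10 of 11 mural and fibroblast genes (0.71), which rested on KO_214: without it, the mean was lower for 13 of the 14 (median -0.29), 9 of the 10 (-0.14) and 10 of the 11 (-0.25). The mean was lower in Med23 CKO for 9 of 10 oligodendrocyte lineage genes (-0.70), but for 4 of 10 without KO_117 (0.46). It was lower for 7 of 10 stem cell genes (-0.24), 7 of 10 neuronal genes (-0.23) and 3 of 4 tested choroid plexus and ependymal genes (-0.35), of which the neuronal median was 0.07 without WT_116 and the choroid plexus and ependymal median 0.12 without KO_117. Among all these markers, Gad1, the enzyme that makes GABA in interneurons, was the only gene of 69 tested with an unadjusted p under 0.05 in limma, where 0.996% of all genes were lower at that p, at 8.92 to 12.2 FPKM in the controls and 2.21 to 5.24 FPKM in Med23 CKO (difference -1.32, standard error 0.27, adjusted p = 0.9999). Except for Tmem212 of the ependymal list, which was at 0 in some libraries, no marker was at 0 in any library.

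**Figure D4:**
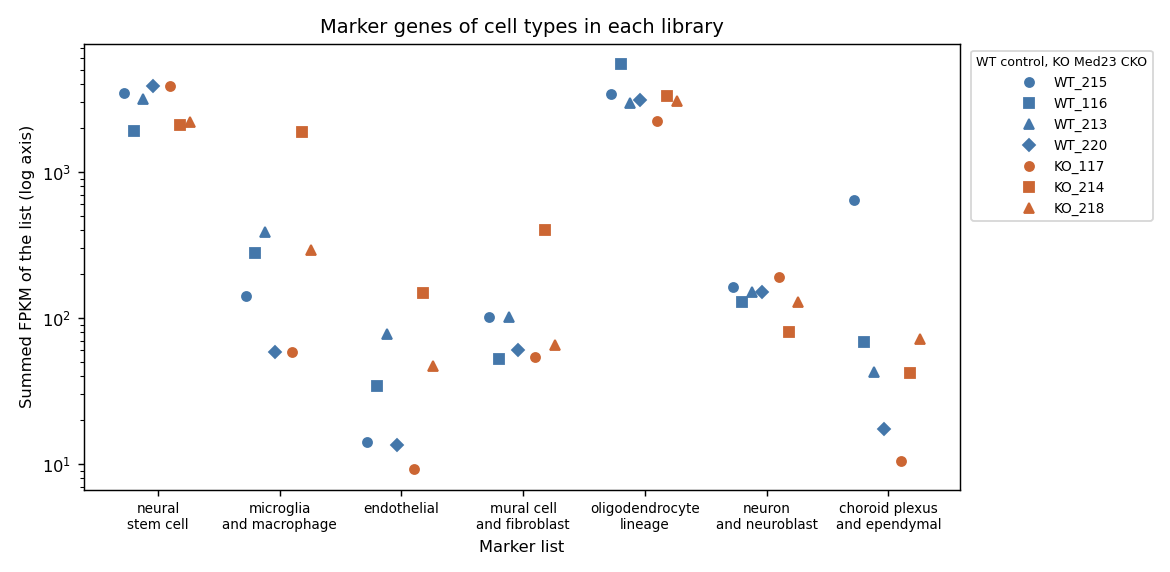
Summed FPKM of each list of marker genes on a log axis, 1 point per library (blue control, orange Med23 CKO). KO_214 is highest for the microglia and macrophage, endothelial, and mural cell and fibroblast lists, and KO_117 is at or near the lowest for these lists.

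The genes whose level followed each member most closely over the 7 libraries were listed by Pearson's r of log2(FPKM + 1), as a description in which all points share their library. For Egfr they were Tcaf1 (r = 0.995), Tdrkh (0.993) and Ppp2r3d (0.992). For Tgfa they were 2610035D17Rik (0.997), Gjb1 (0.997) and Tcp11l2 (0.997), for Btc Txndc16, Pla2g16 and Dcxr (0.998 to 0.999), and for Erbb3 S1pr3 (0.997), Ldb3 (0.995) and Perp (0.995). Such likeness was common for these genes: 369 genes had an r over 0.95 with Egfr, 282 with Tgfa, 616 with Btc, 569 with Erbb3 and 272 with Ereg. Gjb1 encodes connexin 32, a gap junction protein of myelinating cells. The nearest genes to Ereg were Myrip (0.994), Smpdl3a (0.994) and Mocs1 (0.993), and to Erbb2 Ankrd9 (0.993), H2-Q9 (0.988) and Snai1 (0.988). The other ligands and Erbb4 had few such companions. Over 0.95 there were 10 genes for Hbegf, led by Serinc2 (0.977), Mkl2 (0.974) and Itga7 (0.973), 5 for Nrg1, led by Egr1 (0.974), Ift122 (0.965) and Sh2d5 (0.955), 3 for Erbb4 (Tbck, Shc4 and Asxl3, 0.951 to 0.969), and 2 for Areg (Arl4d and Ak1, 0.964 and 0.961, with Fam32a next at 0.949).

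The rest of the pathway was examined with 6 lists of 72 genes, of which 70 were tested. Of these, 0 reached an unadjusted p under 0.05 in limma in either direction, 33 had a higher and 37 a lower mean in Med23 CKO, and the median difference was -0.02. With each library left out in turn, this median stayed between -0.09 and 0.02, and those of the shedding, adaptor, Ras to ERK and inhibitor lists between -0.11 and 0.19, each on both sides of 0. Of the other EGF family ligands, Nrg2 had 0.757 to 4.30 FPKM in control and 1.62 to 3.59 FPKM in Med23 CKO, Nrg4 had 0.528 to 1.72 and 0.704 to 1.69 FPKM, and Egf and Nrg2 differed by -0.06 and 0.08. Among the 9 genes of shedding and trafficking, 5 had a higher and 4 a lower mean. Adam17, the protease that releases Tgfa, Areg, Ereg and Hbegf, differed by 0.18 (standard error 0.25) and was between 18.5 and 38.0 FPKM, and Adam10, which releases Btc, by 0.17 (0.33). Rhbdf2, a partner that brings Adam17 to the surface, had 0.262 to 9.31 FPKM with its lowest value in KO_117 and its highest in KO_214, the same extremes as Ereg and Areg. Rhbdf1 of the same list had more RNA and another order, highest in KO_117 (36.3 FPKM) and lowest in WT_116 (14.1 FPKM).

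Of the 18 adaptors and proximal effectors, 11 had a higher and 7 a lower mean (median 0.05), and the largest difference was that of Shc1 (0.48, standard error 0.30), an adaptor that couples the receptors to Ras, which had 36.5 FPKM in KO_214 and 13.1 to 18.4 FPKM elsewhere. Of the 11 kinases and GTPases from Ras to ERK, 5 had a higher and 6 a lower mean (median -0.04), and Araf (-0.26) was the only gene of the 70 without overlap of the groups, lower as for 1.53% of all genes, at 64.0 to 78.8 FPKM in the controls and 50.7 to 62.1 FPKM in Med23 CKO. The inhibitors split 7 to 6 with a median of 0.02. Errfi1 (Mig6), which binds and blocks the kinase domain, had 7.85 to 26.1 FPKM in the 4 controls and 5.47, 49.0 and 20.6 FPKM in KO_117, KO_214 and KO_218, again lowest in KO_117 and highest in KO_214. Lrig1, which promotes the breakdown of the receptors, was highest in KO_117 (71.1 FPKM). Of the 16 genes of ERK feedback and early response, 3 had a higher and 13 a lower mean (median -0.25, against -0.03 for all genes), and none passed. Without WT_220, 8 had a higher and 8 a lower mean (median 0.0035), and without KO_117 the median was -0.67. Ccnd1 (cyclin D1) was the closest, at 564 to 828 FPKM in the 4 controls and at 603, 371 and 430 FPKM in KO_117, KO_214 and KO_218 (difference -0.57, standard error 0.25, unadjusted p = 0.0536 from limma). The ERK-induced genes Spry4 and Etv4 had their highest 3 libraries in common with Egfr: Spry4 had 60.4, 16.0, 37.2 and 76.2 FPKM in the controls and 84.0, 20.5 and 27.3 FPKM in Med23 CKO, and Etv4 had 42.8, 10.99, 18.8 and 62.3 FPKM and 57.7, 10.96 and 15.2 FPKM. These libraries were WT_215, WT_220 and KO_117, and the groups overlapped. Myc and Phlda1 of the same list also had these as their highest 3, but not all of the 16 genes did. Fosl1 was lowest in KO_117 (0.631 FPKM) and WT_220 (0.946 FPKM) and highest in KO_214 (12.1 FPKM). Ier3 was also highest in KO_214 (94.5 FPKM).

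**Figure D5:**
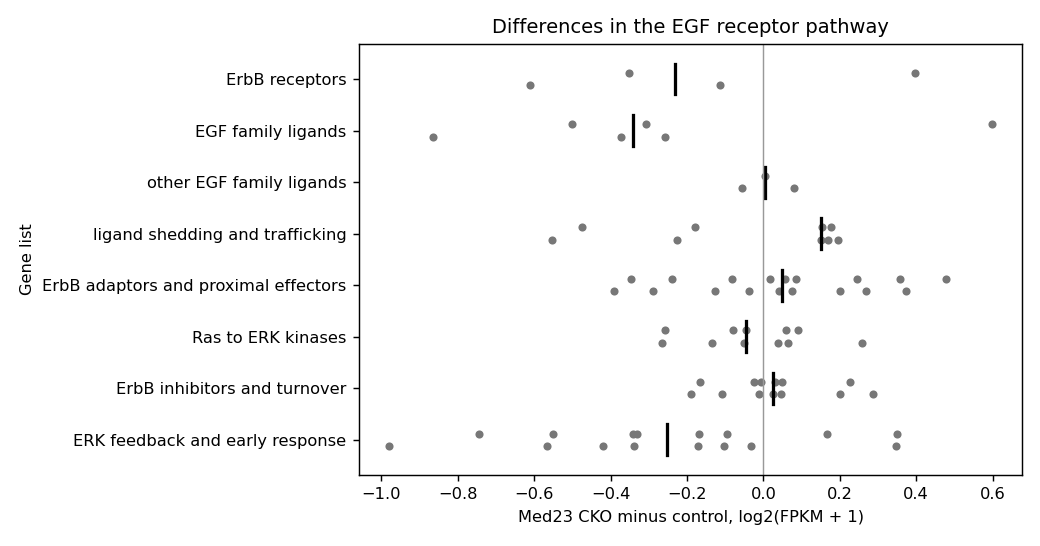
Difference in mean log2(FPKM + 1), Med23 CKO minus control, for each tested gene (points) of the receptor, ligand and pathway lists, with the median of each list as a line. The medians of the 6 other lists lie between -0.25 and 0.15, and those of receptors and ligands at -0.23 and -0.34.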

How the data were processed

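RNA of primary neurospheres from 4 control and 3 Med23 CKO mice was sequenced by the authors on the Illumina HiSeq platform. Per their methods and the submitters' processing notes, they checked reads with FastQC, removed adapters with cutadapt, aligned to mm10 with TopHat and calculated FPKM per gene with Cuffdiff; the version of the annotation and the use of strand are not given in the sources used here. The deposited values are FPKM, 1 column per mouse. The table also holds group means and the authors' own log2 fold change, test score, p-value and q-value, none of which was used. Low FPKM values fell on no steps of whole fragments (the fullest bin of 0.05 on the log2 scale held at most 4.56% of the low genes in any of 21 pairs of libraries), so depth is unknown.

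Genes whose FPKM averaged 0.5 or more over the libraries (14151) were compared on log2(FPKM + 1), with a pseudocount of 1, by limma 3.58.1 in R 4.3.3 (lmFit and eBayes with trend, two-sided, Benjamini-Hochberg adjustment over all genes tested). Single genes were also tested by exact permutation. Libraries were named by the mouse in their title, and each is 1 mouse. The study's text gives n = 3 in each group without naming the controls used, so all 7 were kept. The members and lists were chosen with earlier results of these data known. Named genes are the members, the 3 genes most alike each member, genes of the lists with an unadjusted p under 0.05, and Med23. Others, such as Ccnd1, Araf, Shc1, Spry4, Etv4, Errfi1, Rhbdf2 and Mbp, were named after their values were seen. Alternatives were another pseudocount (0.1), a stricter filter (an average of 1) or none, library medians set equal, quantile normalization, limma with array weights, with robust empirical Bayes (statmod 1.5.0) or without trend, exact permutation per gene, mice numbered in the 200s only, and each library left out in turn. Leaving out WT_220 and KO_117 together, and each library in turn for the counts and medians of lists, was chosen after seeing the data. Coordinates are RefSeq's on GRCm38.p6.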

Additional observations from a re-analysis of the deposited data

Results flagged for a closer look

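Among 18 measures tested in the 4 controls (10 genes and 8 sums or ratios of them), 1 was set apart by a sample far from the others. Ereg was 0.228 FPKM in WT_220, where the 3 other controls had 1.92 to 2.19 FPKM, and the gap was 0.905 of the range of log2(FPKM + 1), above the 95% critical value of Dixon's test for 4 samples. By chance about 1 in 20 groups is set apart in this way. The groups of 3 were not tested.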

How the results depend on the processing

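The count of members at an adjusted p under 0.05 was 0 under every alternative, and all 10 members stayed tested except Erbb2, which a mean FPKM of at least 1 removed. Of the values of single members under the alternatives, 159 kept the direction of the reported difference and 20 reversed. Hbegf, Egfr, Erbb2, Erbb4 and Nrg1 kept it under all that gave a value, and Hbegf had an unadjusted p under 0.05 in 11 of 18. The unadjusted count of members lower was 1. It was 2 with array weights (Hbegf and Nrg1), 0 by exact permutation per gene, and 0 without WT_220 and KO_117 together, and between 0 and 2 with each library left out. The count of members higher was 0. It was 1 by exact permutation (Erbb2), 1 with mice numbered in the 200s only (Ereg) and 1 without WT_220 and KO_117 together (Ereg), and between 0 and 1 with each library left out. The difference of the receptors stayed between -0.30 and -0.05, and that of the ligands ran from -0.73 without KO_214 to 0.46 with mice numbered in the 200s only.

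The reversals were in genes whose reported difference was within its standard error. With array weights, Erbb3 was 0.00507, Areg 0.12, Tgfa 0.03803 and Btc 0.17. With mice numbered in the 200s only, Erbb3 was 0.64, Areg 0.42, Tgfa 0.75 and Btc 1.05. Without WT_220 and KO_117 together, chosen after seeing the data, Erbb3 was 0.14, Areg 0.51, Tgfa 0.01099 and Btc 0.13. With each library left out in turn, Erbb3 ran from -0.51 to 0.45, Areg from -0.72 to 0.41, Tgfa from -0.83 to 0.41 and Btc from -0.82 to 0.63, each lowest without KO_214 and highest without KO_117, and Ereg from -0.15 to 1.46. The cause was not tested.

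Over all genes, the unadjusted counts were 71 higher and 141 lower. They were 193 and 887 with array weights, with mice numbered in the 200s only 476 and 1381, without a filter 140 and 201, with libraries centred on their median 99 and 119, with quantile normalization 102 and 123, and without WT_220 and KO_117 together 177 and 212. With 1 library left out, 44 to 362 were higher and 71 to 410 lower. At an adjusted p under 0.05, 1 gene passed without KO_214 and 1 without KO_218, and 0 under the other alternatives. The number of libraries limits the precision.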
